A study of Mus musculus with 3 samples.

Results

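Genes of collagens, laminins, integrins and fibronectin were read across 3 libraries of ribosome-bound RNA from mouse brain. The members were all listed genes whose symbol names a collagen chain, a laminin chain or an integrin (leaving out Itgax), together with the fibronectin gene Fn1. They numbered 77 of the 16610 genes listed: 39 collagen chains, 11 laminin chains, 26 integrin-named genes and Fn1. The RefSeq gene table holds 86 symbols of this form, and the other 9 were not analysed here.

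The study used a RiboTag pull-down, in which ribosomes that carry an epitope tag in chosen cells are precipitated with the transcripts they translate. Astrocytes are named in the series title, while no Cre driver, strain, sex or age is given in the labels. Tissue came from the middle section of 1 side of the brain, with collection after 3 days, and each of the 3 groups was 1 library from a pool of 3 animals, for which the series design gives 2 technical replicates. One group had no occlusion, and its right hemisphere is called the control. In the others the middle cerebral artery was occluded for 1 h (MCAO), and their right side is called contralateral and their left side the MCAO hemisphere. Values in all 3 libraries are given below in the order control, contralateral, MCAO. With 1 library per group no difference has a replicate check, and no p-value is given. Side and occlusion cannot be told apart, since no left hemisphere without occlusion was labelled.

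Collagens are trimers of chains with long glycine-rich repeats; some form fibrils, type IV forms the net of basement membranes, and others decorate fibrils or span the cell membrane. Laminins are trimers of an alpha, a beta and a gamma chain, and are the other main network of basement membranes, which in brain lie around vessels and under the pia. Fibronectin is a secreted glycoprotein of plasma and tissue matrix that is sparse in the intact brain parenchyma. Integrins are receptors made of 1 alpha and 1 beta chain, and classes of them bind collagens, laminins, proteins with the tripeptide RGD such as fibronectin, or ligands on other cells. Astrocytes contact the vascular basement membrane with their endfeet, where laminin receptors anchor them.

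The values are normalised read counts, that is, reads divided by a size factor of the library. The recovered depth was 31833456, 33886604 and 25930258 reads. Summed over 12 astrocyte marker genes the libraries had 569968, 598877 and 530209 normalised counts, and over 12 neuron marker genes 294924, 264659 and 263215, so transcripts of neurons were present beside those of astrocytes. Male germ cell genes were present in the contralateral library, where 18 such genes summed to 15678 normalised counts, against 1501 in the control and 1532 in the MCAO hemisphere. In a pull-down from pooled tissue, fewer cells of a type and less RNA per cell cannot be told apart.

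Of the 77 members, 68 had a mean of at least 20 normalised counts over the 3 libraries and were compared. Differences were taken on the log2(normalised count + 5) scale, which understates those of low genes, and at least 2-fold on this scale was counted. Fibronectin, 2 collagen chains and 3 integrin chains exceeded both right hemispheres by at least 2-fold in the MCAO library: Fn1, Col5a3, Col16a1, Itga5, Itgam and Itgb2. These 6 of 68 members stand beside 2.58% of all 14906 genes past the filter. No member was at least 2-fold lower than both, beside 0.517% of all genes. Without the contralateral library, 7 members were at least 2-fold higher than the control alone, the seventh being Col11a1, beside 4.12% of all genes, and none was lower, beside 1.25%. Against the contralateral library alone 7 were higher, the seventh being Itga7, beside 3.18% of all genes, and 1, Col22a1, was lower, beside 4.96%. The MCAO library is shared by these comparisons.

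**Figure D1:**
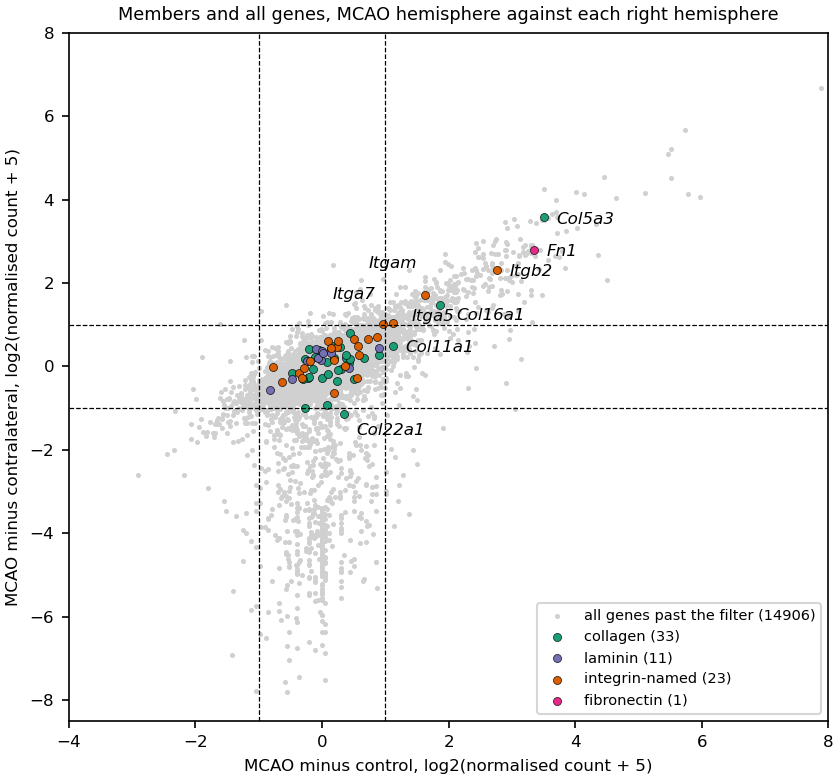
Each point is a gene, placed by its difference between the MCAO hemisphere and the control (horizontal axis) and between the MCAO hemisphere and the contralateral library (vertical axis), both in log2(normalised count + 5). Grey points are the 14906 genes past the filter, coloured points are the 68 members by family, and dashed lines mark 2-fold; the 6 members in the upper right corner are those higher than both right hemispheres.

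Most members lay close to the right hemispheres. In 44 of 68 the MCAO value was within 1.5-fold of both, a share of 64.7% where all genes had 79.4%. The median log2 difference of the members was 0.19 against the control and 0.20 against the contralateral side, where all genes had 0.00 in both cases. The MCAO value was the highest of the 3 in 34 members and the lowest in 14, shares of 50% and 20.6%, while all genes had 34.3% and 35.0%. A member could pass the filter through the library in which it is high, as Col5a3 and Col13a1 did.

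Reads of the members made up 0.0927% of the control library, 0.0912% of the contralateral library and 0.122% of the MCAO library. Their normalised counts summed to 28593, 27412 and 37310. The 23 classical integrin chains had 15524 in the control and 22390 in the MCAO hemisphere, and made up 78.8% of the net difference from the control. The 39 collagen chains went from 6512 to 6969 and the 11 laminin chains from 5464 to 5511. Itgb5, Itgb1, Fn1 and Itga7 together held 63.2% of that net difference. Such sums follow the long and abundant transcripts, and no length table was used to compare levels between genes.

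To show the start regions of the members higher than both right hemispheres, windows of 250 bases before the start were taken for the 4 of 6 with an entry in the RefSeq promoter table (GRCm38.p6), each on its gene's strand and 5′ to 3′. That table's starts for Col5a3 and Col16a1 lie inside the bounds of the gene, so the last 50 and 23 bases of their windows are left out here. Capitals mark GGGCGG or its reverse complement, the GC box to which SP1-type factors bind. The stretches printed are chr4:130047590-130047816 on the plus strand for Col16a1, chr9:20815118-20815317 on the minus strand for Col5a3, chr15:103366792-103367041 on the minus strand for Itga5 and chr7:128062390-128062639 on the plus strand for Itgam.
Col16a1: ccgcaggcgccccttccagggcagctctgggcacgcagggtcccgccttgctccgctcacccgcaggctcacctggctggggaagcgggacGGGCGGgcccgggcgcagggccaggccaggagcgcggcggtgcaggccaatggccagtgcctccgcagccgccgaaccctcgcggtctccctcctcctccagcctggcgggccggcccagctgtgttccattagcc
Col5a3: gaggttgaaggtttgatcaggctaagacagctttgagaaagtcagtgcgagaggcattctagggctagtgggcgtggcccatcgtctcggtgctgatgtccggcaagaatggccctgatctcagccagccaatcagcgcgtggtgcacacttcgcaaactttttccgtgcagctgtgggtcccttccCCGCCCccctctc
Itga5: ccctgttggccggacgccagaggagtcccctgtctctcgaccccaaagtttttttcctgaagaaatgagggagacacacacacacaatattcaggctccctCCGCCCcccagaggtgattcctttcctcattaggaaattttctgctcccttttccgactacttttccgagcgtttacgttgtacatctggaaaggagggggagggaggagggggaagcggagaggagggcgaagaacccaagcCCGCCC
Itgam: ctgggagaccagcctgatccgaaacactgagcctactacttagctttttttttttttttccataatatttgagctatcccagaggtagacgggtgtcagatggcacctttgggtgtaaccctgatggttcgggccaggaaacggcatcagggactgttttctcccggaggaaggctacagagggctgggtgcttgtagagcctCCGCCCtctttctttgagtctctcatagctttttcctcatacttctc

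The 4 stretches differ in base content, with 75.8% G and C for Col16a1, 58% for Col5a3, 55.6% for Itga5 and 49.6% for Itgam. Each holds at least 1 GC box, on either strand, as do 31 of the 58 full windows of members and 32.7% of all 32851 windows of that length. GAGGAA, the core bound by the myeloid factor PU.1, was searched on both strands. It occurs at 2 places in the Itgam window and 1 in that of Itga5, and in 23.3% of all windows. TGANTCA, a letter form of the AP-1 site, is in none of the 4 and in 6.75% of all windows. TTCNNNGAA, a letter form of the STAT site, is also in none of the 4, and in 7.02% of all windows. These matches describe letters and not binding.

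Fn1 (chromosome 1, 71585473 to 71653280) encodes fibronectin, whose RGD site is bound by the integrin of the Itga5 and Itgb1 chains. Its normalised counts were 115, 171 and 1217, from 119, 193 and 1035 reads. The MCAO library stood far above both right hemispheres, which differed less from each other. The ratio of MCAO to control was 10.6 (95% counting interval 8.73 to 12.9), and that of MCAO to contralateral was 7.11 (6.09 to 8.33). The contralateral value was 1.49-fold the control (1.18 to 1.88). By the smaller of its log2 differences from the right hemispheres, Fn1 had rank 40 of 14906 genes. Gene-level counts do not separate the plasma form from the cellular splice forms. All such intervals are exact, cover counting error only, and treat reads as independent, although no molecular identifiers were counted and reads may stem from the same molecule.

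**Figure D2:**
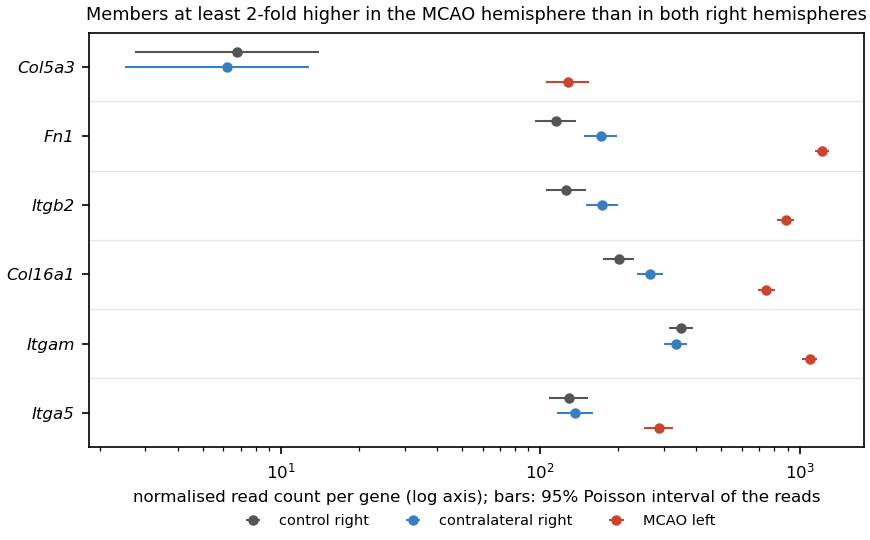
Normalised read counts (log axis) of the 6 members higher than both right hemispheres, by library, with 95% Poisson intervals of the reads as bars. Fn1 stands at 1217 in the MCAO hemisphere against 115 and 171, and Col5a3 at 128 against 6.78 and 6.21; for the 6 genes shown, the interval of the MCAO library is clear of both others.

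Among the fibrillar collagen chains, 1 of 9 past the filter was higher than both right hemispheres. Col5a3 (chromosome 9, 20770050 to 20815117) encodes a chain of type V collagen, a minor component that joins larger collagen fibrils. Its normalised counts were 6.78, 6.21 and 128, from 7, 7 and 109 reads. Both right hemispheres were near the limit of what these depths count, and the MCAO library was well above it. The MCAO value was 18.9 (8.87 to 48.1) times the control and 20.6 (9.69 to 52.6) times the contralateral one. Col5a3 had rank 20 of 14906 genes by the smaller difference. It passed the filter only through its MCAO value, so this rank is no separate support.

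Neither of the other chains of type V collagen was at least 2-fold higher in the MCAO library. Col5a1, present in most forms of that collagen, had 72.6, 55.0 and 99.98 normalised counts, and the MCAO value was 1.38-fold the control (0.997 to 1.90). Against the contralateral library the MCAO value was 1.82-fold (1.29 to 2.56). Col5a2 had 32.0, 69.2 and 34.1, and was highest in the contralateral library. The counting intervals of Col5a1 and Col5a2 against the control do not reach that of Col5a3.

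Type I and type III collagens are the main fibrillar collagens of skin, meninges and scars. Col1a1 had 181, 232 and 245 normalised counts, and Col1a2, its partner chain, had 476, 576 and 475. Relative to the control, MCAO values were 1.35-fold for Col1a1 (1.10 to 1.65) and 0.999-fold for Col1a2 (0.874 to 1.14), and these intervals overlap. Col3a1 had 68.8, 110 and 133, a ratio of 1.93 (1.42 to 2.64) to the control and of 1.21 (0.928 to 1.57) to the contralateral side. In these 3 genes the contralateral library was above the control. For Col1a2 the MCAO value was 0.825-fold the contralateral one (0.727 to 0.936).

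Col11a1, a chain of the type XI collagen of cartilage fibrils, had 31.0, 50.6 and 72.9 normalised counts. Its MCAO value was 2.35 (1.51 to 3.73) times the control and 1.44 (0.99 to 2.10) times the contralateral one, with the 3 libraries in a graded order. Its partner Col11a2 had 273, 175 and 235 and was lowest in the contralateral library. Col27a1 had 45.5, 55.9 and 63.5. Col2a1, under the filter, had 5.81, 24.0 and 2.35.

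Of the 8 fibril-associated collagen chains past the filter, Col16a1 was higher than both right hemispheres. Col16a1 (chromosome 4, 130047817 to 130099277) encodes type XVI collagen, which lies on fibrils and near basement membranes. It had 201, 266 and 746 normalised counts, from 208, 300 and 634 reads, and the MCAO library was above both others. In the MCAO hemisphere it was 3.70 (3.16 to 4.35) times the control and 2.80 (2.44 to 3.22) times the contralateral one. Of the other 7, Col9a2 had 475, 476 and 386, and its partner Col9a3 had 524, 500.4 and 475. Col22a1 had 42.6, 129 and 55.3, and stood out in the contralateral library instead. The remaining 4, Col12a1, Col14a1, Col19a1 and Col20a1, were between 0.822-fold and 1.52-fold of the control in the MCAO hemisphere.

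Type IV collagen chains, the net-forming collagens of basement membranes, differed little. Col4a1 had 286, 306 and 373 normalised counts and Col4a2, its usual partner, had 334, 421 and 399. The MCAO values were 1.31-fold (1.11 to 1.53) and 1.19-fold (1.02 to 1.39) the control. Against the contralateral library they were 1.22-fold (1.04 to 1.42) and 0.948-fold (0.822 to 1.09). Col4a5 had 129, 101 and 119, and Col4a6 had 29.1, 24.8 and 36.5. Col4a3 and Col4a4, chains of a specialised net in kidney and other tissues, were under the filter at 18.4, 7.99 and 14.1 and at 1.94, 16.9 and 4.71.

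Type VI collagen, which forms beaded filaments, had no chain past 2-fold among the 4 that passed the filter. Col6a1 had 191, 187 and 218 normalised counts, Col6a2 had 136, 164 and 145, and Col6a3 had 67.8, 53.2 and 76.5. Their MCAO values were 1.14-fold, 1.07-fold and 1.13-fold the control, each with an interval that holds 1. Col6a5 had 32.0, 22.2 and 30.6, and Col6a4, under the filter, had 6.78, 17.7 and 5.88, with the contralateral library 2.62 (1.06 to 7.33) times the control.

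Among the remaining collagens, the transmembrane chains lay on the lower side, with a median difference of -0.27 from the control over 3 genes. Col25a1, a transmembrane collagen of neurons, had 1738, 1388 and 1250 normalised counts, and the MCAO value was 0.72-fold the control (0.666 to 0.777). Col23a1 had 261, 272 and 223, and Col13a1, whose difference is the median of this class, had 22.3, 39.9 and 17.6. Their ratios to the control were 0.858 (0.709 to 1.04) and 0.792 (0.384 to 1.58), both with intervals that hold 1. The basement membrane collagens Col15a1 and Col18a1, the latter the source of endostatin, had 36.8, 42.6 and 49.4 and 98.8, 138 and 159. Col8a1 and Col8a2, chains of a short collagen of vessel walls and cornea, were both within 1.5-fold of the right hemispheres, as was Col26a1. Col7a1, the anchoring fibril collagen, was under the filter at 3.87, 1.77 and 15.3, from 4, 2 and 13 reads, and Col9a1 was under it at 10.7, 13.3 and 16.5.

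None of the 11 laminin chains, all of which passed the filter, was at least 2-fold different from either right hemisphere, and 9 were within 1.5-fold of both. Among the alpha chains, Lama2, the chain of muscle and of glial and vascular basement membranes, had 766, 594 and 650.5 normalised counts. Lama1 had 92.0, 129 and 125, Lama4, the endothelial chain, had 129, 88.7 and 120.0, and Lama5 had 188, 146 and 188. Lama3, a chain of epithelial laminin, had the largest alpha chain difference, at 38.7, 55.0 and 76.5, where the MCAO value was 1.97-fold the control (1.31 to 3.00). Against the contralateral library the MCAO value was 1.39-fold (0.966 to 2.00), an interval that holds 1. Lamb3, an epithelial partner chain, had 68.8, 56.8 and 65.9, a ratio of 0.958 to the control (0.663 to 1.38).

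In the MCAO hemisphere the widespread beta and gamma chains were almost level with the control. Lamb1 had 810, 725 and 800 normalised counts, Lamb2 had 1892, 1679 and 2100, and Lamc1 had 1177, 954 and 1194. Their MCAO values were 0.988-fold (0.891 to 1.09), 1.11-fold (1.04 to 1.18) and 1.01-fold (0.932 to 1.10) the control. Against the contralateral library they were 1.10-fold (0.995 to 1.22), 1.25-fold (1.17 to 1.34) and 1.25-fold (1.15 to 1.37). Lamc3 had 149, 124 and 82.3, a ratio of 0.552 to the control (0.410 to 0.737). In 7 of the 11 chains the contralateral library was the lowest of the 3, a share of 63.6% where all genes past the filter had 27.9%. The median log2 difference of that library from the control was -0.25 over the laminins, beside 0.00 over all genes.

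**Figure D3:**
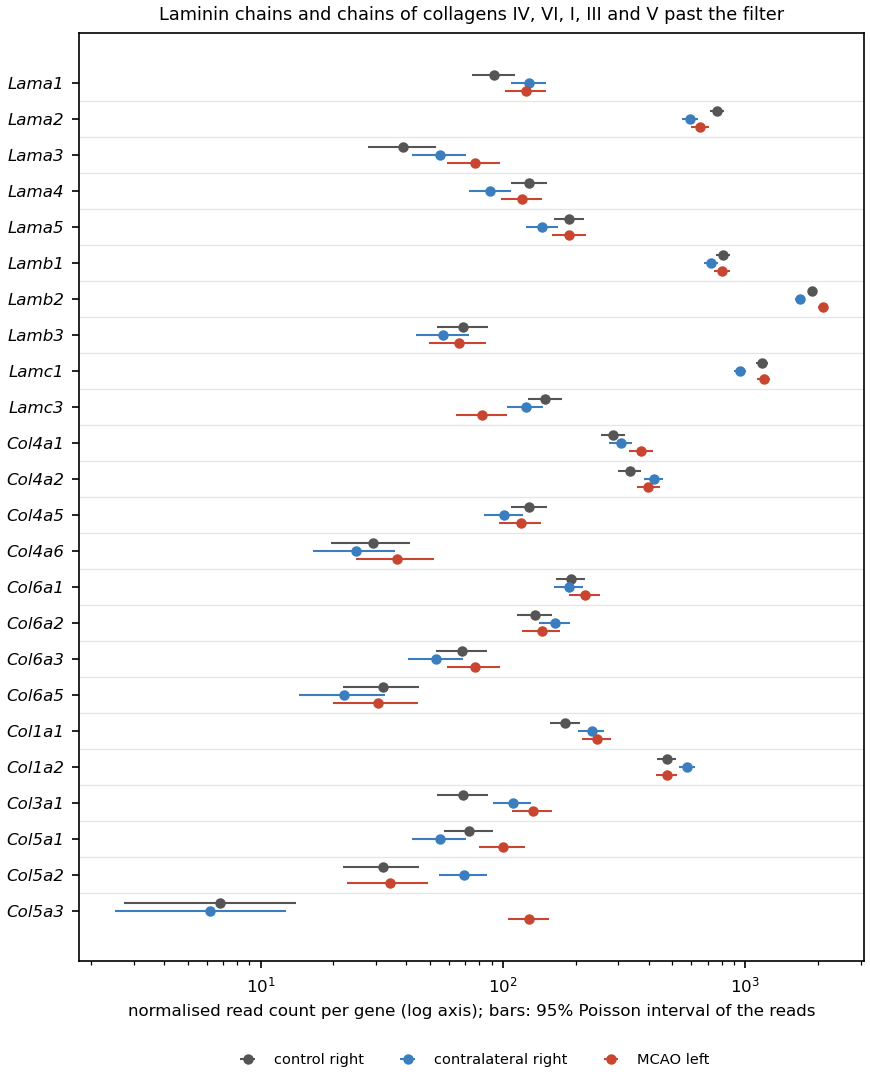
Normalised read counts (log axis) of laminin chains and of type IV, VI, I, III and V collagen chains past the filter, by library, with 95% Poisson intervals of the reads as bars. The 3 libraries sit close together for most chains, as for Lamb1 at 810, 725 and 800, while Col5a3 stands apart in the MCAO hemisphere.

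Among the integrin alpha chains that bind RGD ligands, 1 of 4 was higher than both right hemispheres. Itga5 (chromosome 15, 103344286 to 103366791) encodes the alpha chain of the main fibronectin receptor. It had 129, 137 and 287 normalised counts, from 133, 154 and 244 reads, with the right hemispheres level and the MCAO library above them. Its MCAO value was 2.23 (1.80 to 2.77) times the control and 2.10 (1.71 to 2.59) times the contralateral one. Itgav, the alpha chain shared by the vitronectin receptors, had 3366, 2723 and 3721, a ratio of 1.11 to the control (1.05 to 1.16). Itga8 had 112, 77.2 and 120.0, and Itga2b, the platelet chain, had 51.3, 42.6 and 61.2.

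Of the laminin-binding alpha chains, Itga7 had the largest difference. It had 831, 806 and 1633 normalised counts, and the MCAO library was above right hemispheres that were level with each other. There it was 1.96 (1.80 to 2.14) times the control and 2.03 (1.86 to 2.21) times the contralateral one, just under the counted size against the control. Itga6 had 1035, 935 and 1476, a ratio of 1.43 to the control (1.31 to 1.55). Itga3 had 1206, 970 and 1054, a ratio of 0.874 to the control (0.801 to 0.953). The 3 intervals of this class against the control do not overlap.

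The beta chains of these receptors were mostly higher in the MCAO hemisphere, by less than 2-fold. Itgb1, the partner of most matrix-binding alpha chains, had 2904, 3083 and 4317 normalised counts, a ratio of 1.49 to the control (1.42 to 1.56). Itgb5, a partner of Itgav, had 3360, 3527 and 5548, a ratio of 1.65 (1.58 to 1.73). Itgb3, the other vitronectin receptor chain, had 157, 176 and 292, a ratio of 1.86 (1.52 to 2.28). Against the contralateral library these ratios were 1.40, 1.57 and 1.66, with the MCAO library above both right hemispheres. Itgb4, the partner of Itga6 in epithelia, had 675, 519.9 and 801. Itgb8, the beta chain with which Itgav activates latent TGF-beta on astrocytes, had 423, 356 and 346. Its MCAO value was lower than the control, at a ratio of 0.817 (0.702 to 0.949). The ratio to the contralateral library was 0.972 (0.833 to 1.13), an interval that holds 1.

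Collagen-binding alpha chains gave few reads. Itga1 had 27.1, 52.3 and 31.8 normalised counts and Itga11 had 54.2, 46.1 and 41.2, and Itga10 was under the filter at 12.6, 16.0 and 12.9. Itga4 and Itga9, alpha chains with ligands that include fibronectin variants, osteopontin and tenascin, had 268, 274 and 307 and 355, 346 and 283.

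Leukocyte integrin chains held 2 of the 6 higher members. Itgam (chromosome 7, 128062640 to 128118491) encodes CD11b, and Itgb2 (chromosome 10, 77530329 to 77565708) encodes CD18, and together they form the complement receptor of microglia, macrophages and neutrophils. Itgam had 349, 333 and 1093 normalised counts, from 360, 375 and 929 reads. Itgb2 had 126, 173 and 883, from 130, 195 and 751 reads. In both genes the MCAO library was above the right hemispheres. The MCAO value of Itgam was 3.13 (2.77 to 3.55) times the control and 3.28 (2.91 to 3.71) times the contralateral one. That of Itgb2 was 7.02-fold (5.82 to 8.52) and 5.11-fold (4.36 to 6.01), and its interval against the control lay above that of its partner.

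Among the other leukocyte integrin chains, the 2 past the filter were not 2-fold higher. Itgal, the alpha chain of LFA-1 and another partner of Itgb2, had 56.2, 31.1 and 30.6 normalised counts, a ratio of 0.544 to the control (0.329 to 0.879). The ratio of its MCAO value to the contralateral one was 0.985 (0.569 to 1.68). Itgb7 had 20.3, 26.6 and 32.9. Itgae and Itgad were under the filter, at 3.87, 32.8 and 12.9 and at 2.91, 12.4 and 5.88, and both were highest in the contralateral library. No gene of the 12 on a lymphocyte marker list was among the listed genes.

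**Figure D4:**
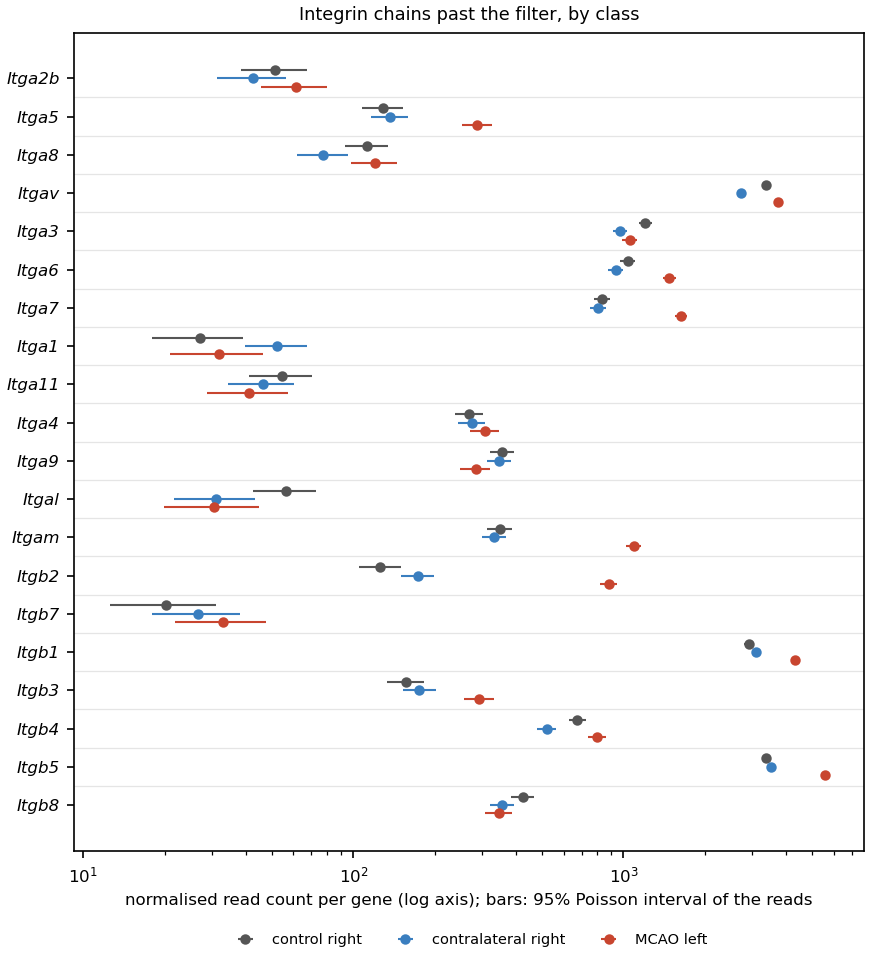
Normalised read counts (log axis) of the integrin chains past the filter, ordered by class (RGD-binding, laminin-binding and collagen-binding alpha chains, Itga4 and Itga9, leukocyte chains, other beta chains), by library, with 95% Poisson intervals of the reads as bars. Itgb2, Itgam, Itga5 and Itga7 show the widest gaps between the MCAO hemisphere and both right hemispheres. Itgal and Itgb8 are lower in the MCAO hemisphere than in the control, but close to the contralateral library.

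The rule also took in 3 genes that are no classical integrin chains. Itgb1bp1, encoding a protein that binds the tail of the Itgb1 chain, had 816, 1055 and 1053 normalised counts. Itgb3bp, which encodes a centromere protein as well as a binder of the Itgb3 tail, had 79.4, 145 and 119. Itgbl1, encoding a secreted integrin-like protein, had 81.4, 67.4 and 50.6. Itgbl1 overlaps Fgf14 in the annotation, with 884, 733 and 479 normalised counts, and Itgb1bp1 overlaps Cpsf3 and Asap2, so their reads may be mixed because no strand setting was found. The same holds for Itga1, which overlaps Pelo with 541, 551 and 535, and for Itgb4, which overlaps Galk1 with 529.8, 533 and 692. It also holds for Col9a3 with Tcfl5 (24.2, 155 and 15.3), Itgad with Cox6a2 (58.1, 77.2 and 57.6), Itga4 with Cerkl, and Itga8 with the lncRNA E030013I19Rik. None of the 6 members higher than both right hemispheres overlaps another listed gene.

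Some members lie within 100000 bases of each other in the genome of build GRCm38.p6, and such pairs did not always have like values. Genes between them were not looked at. Col4a1 and Col4a2 start within 85 overlapping bases of each other on chromosome 8, and their MCAO values were 1.31-fold and 1.19-fold the control. Itgam and Itgad lie 55441 bases apart on chromosome 7, and only Itgam gave more than 20 normalised counts. Col3a1 and Col5a2 lie 24624 bases apart on chromosome 1, with MCAO values 1.93-fold and 1.07-fold the control.

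Other genes of these pathways were taken from lists, whose counts stand beside 2.58% of all genes higher and 0.517% lower than both right hemispheres. The lists were not tested against each other or against all genes. Among enzymes that modify and export collagen, 1 of 21 was at least 2-fold higher than both right hemispheres and none was lower. This was P3h2, a collagen prolyl hydroxylase, with 51.3, 39.0 and 111 normalised counts. Of 9 genes of collagen maturation and cross-linking past the filter, 1 was higher and none lower. Bmp1, the protease that trims procollagens, had 840, 730 and 1729. None of 15 basement membrane partners, 14 genes of the dystroglycan complex and other laminin receptors, or 5 other collagen receptors was 2-fold different from both. Their medians against the control were -0.07, -0.05 and 0.19, beside 0.00 over all genes.

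Of 17 ligands past the filter that share integrin receptors with fibronectin, 5 were higher than both and none lower, with a median of 0.41 against the control. Spp1, encoding osteopontin, had 251, 487 and 8736 normalised counts. Tgfbi, encoding a matrix protein induced by TGF-beta, had 205, 186 and 1226. Thbs1, encoding thrombospondin 1, had 73.6, 64.8 and 202, and Igfbp2, encoding a binder of insulin-like growth factors, had 1795, 1933 and 4620. The fifth was Tgfb1, with 98.8, 101 and 247.

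Of 32 genes of the machinery that links integrins to actin, 2 were higher than both and none lower, with a median of 0.22 against the control. Both are known from blood cells: Fermt3, encoding kindlin-3, had 101, 129 and 365 normalised counts, and Lpxn, encoding leupaxin, had 21.3, 31.1 and 68.2. Of 12 genes of fibronectin ligands and assembly, 1 was higher and none lower. This was Plaur, the urokinase receptor, with 6.78, 10.7 and 113, which passed the filter only through its MCAO value.

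Myeloid marker genes were also higher in the library where Itgam and Itgb2 stood out. Of 13 microglia markers 8 exceeded both right hemispheres by at least 2-fold, beside the 2.58% of all genes, and the list summed to 11247, 11675 and 31532 normalised counts. Of 9 macrophage and monocyte markers past the filter 7 were higher, and the 11 listed genes summed to 525, 737 and 5071. The defining microglia genes P2ry12 and Tmem119 were not among the 8, with 405, 382 and 418 and 475, 403 and 587. Of the neutrophil list 2 of 10 genes were listed, S100a9 at 5.81, 14.2 and 16.5 and Csf3r at 81.4, 96.7 and 314. The part of these cells in the values of Itgam, Itgb2, Fn1, Col5a3, Col16a1 and Itga5 was not tested.

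Markers of cells that make vascular and meningeal matrix had smaller ratios in sum. The 14 endothelial markers summed to 1264, 1017 and 1569 normalised counts, the 12 mural markers to 4934, 4293 and 4522, and 13 markers of perivascular and meningeal fibroblasts to 8517, 11068 and 8301. The MCAO sums were 1.24-fold, 0.916-fold and 0.975-fold those of the control. No listed gene of these 3 lists was at the lowest value of 1 in any library, and none past the filter exceeded both right hemispheres by 2-fold in the MCAO library. The 12 astrocyte markers had a median of -0.01 against the control, with none 2-fold different.

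**Figure D5:**
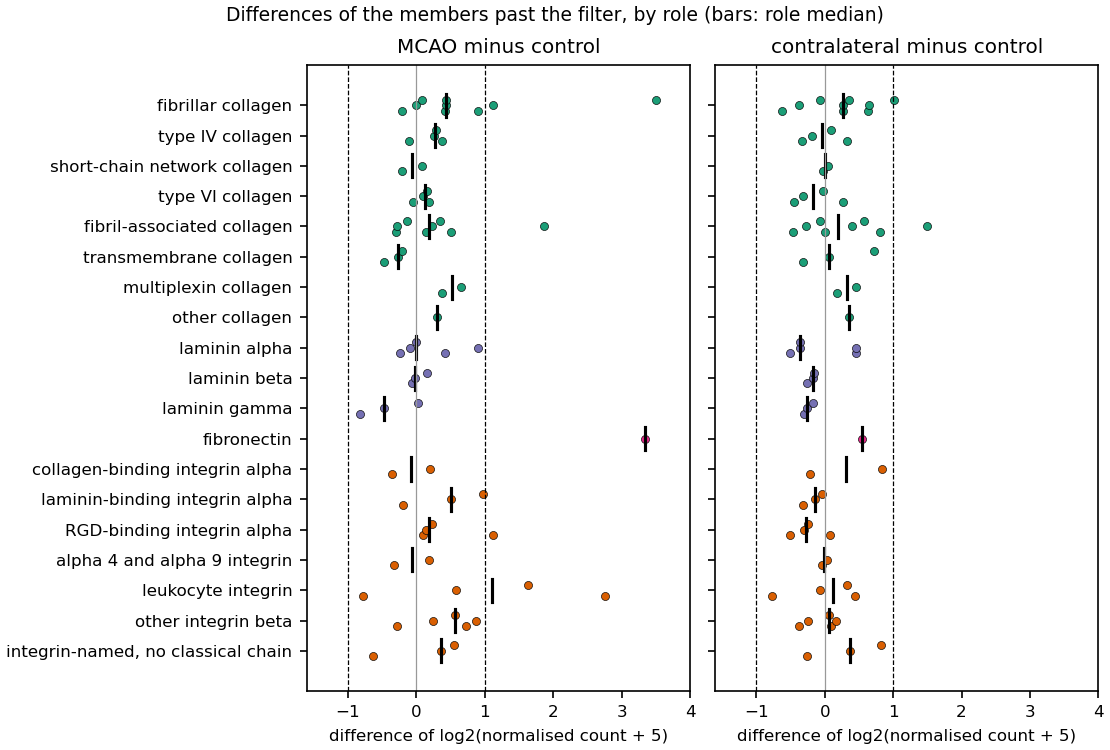
Differences in log2(normalised count + 5) of the 68 members past the filter, by role, between the MCAO hemisphere and the control (left) and between the contralateral library and the control (right). Points are genes, black bars the median of a role, and dashed lines mark 2-fold; in the left panel Col5a3, Fn1 and Itgb2 lie farthest to the right, and in the right panel Col22a1 does.

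The contralateral right hemisphere was compared with the control right hemisphere to ask whether the side opposite the occlusion differed. Of 68 members 2 were at least 2-fold higher, beside 5.17% of all genes, and none was lower, beside 0.362%. Col22a1, a collagen of tissue junctions, had 42.6, 129 and 55.3 normalised counts, from 44, 145 and 47 reads. Its contralateral value was 3.02 (2.14 to 4.33) times the control. Col5a2 had 32.0, 69.2 and 34.1, a ratio of 2.17 (1.42 to 3.36). In both genes the contralateral library stood above the other two, whose ratio to each other had an interval that holds 1.

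The members' median difference was -0.03 in this comparison, beside 0.00 over all genes, and it was 0.0082 when libraries were scaled to their totals. Of the 6 members higher in the MCAO hemisphere, Fn1 was 1.49-fold the control, Itgb2 1.37-fold (1.10 to 1.73) and Col16a1 1.32-fold (1.10 to 1.58), whereas Itgam at 0.954-fold (0.824 to 1.11), Col5a3 and Itga5 had intervals that hold 1. The contralateral library was the one with male germ cell transcripts, with 17 of 17 marker genes past the filter above the control by 2-fold or more. Of 6 testis somatic genes past the filter 2 were, Cyp17a1 with 73.6 normalised counts and Insl3 with 60.3, both at the lowest listed value in the control. Markers of perivascular and meningeal fibroblasts had a median of 0.59 above the control in that library. Under the filter, Col2a1, Col4a4, Col6a4, Itga10, Itgad and Itgae were also highest there, for Itga10 at only 1.27-fold the control (0.588 to 2.82). Low genes in general were higher in that library. With no filter 1415 of 16610 genes were at least 2-fold above the control there, beside 771 of 14906 past the filter. It had 47 genes at the lowest value of 1, against 665 in the control and 583 in the MCAO library. The part of germ cells, other testis cells or fibroblasts in the values of the members was not tested.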

How the data were processed

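Per the labels, RNA of a RiboTag pull-down from 3 pooled brain samples was made into libraries with a TruSeq kit. The authors deposited 1 table of signal values, namely reads per gene over the library's size factor, in which nothing is listed below 1. Tools listed in the submitters' processing notes, without roles, are DESeq2, R 3.3.1, Partek 6.6, HISAT2 2.0.11 and CASAVA 1.8, with build mm10. Each column name equals the description of 1 sample, and no column was left unused.

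In the order control, contralateral, MCAO, 1 read was worth 0.969, 0.887 and 1.18 normalised counts, and 99.9% of values above 1 were whole within 0.1 read in each. Ratios printed as folds are of normalised counts without the pseudocount of 5, and their 95% intervals are exact Clopper-Pearson intervals of the recovered reads (scipy 1.17.1). Genes with a mean of at least 20 were compared at 2-fold. The procedure was tested on simulated data. Coordinates and promoters came from RefSeq tables for GRCm38.p6, which held all 77 members, 53 of them with a promoter entry. No length table was used, so levels were not compared between genes.

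Members, roles and lists were chosen with earlier results of these data known. Values in all libraries are given for members at least 2-fold different, for Fn1, for the chains of collagens I, III, IV and VI, for laminins (1 member is not reported here) and for a fixed set of integrins, and for up to 4 genes per pathway list by the size of their difference from both right hemispheres. Other members and markers named, and Tgfb1, were chosen after their values were seen.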

Additional observations from a re-analysis of the deposited data

How the results depend on the processing

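The count of 6 members higher than both right hemispheres came to between 4 and 9 under the alternatives tried (pseudocount 1, no filter, a mean of at least 50, 1.5-fold, 3-fold, scaling to the total or the upper quartile of recovered reads, and values under 3 reads raised to 3). The 4 at 3-fold stand beside 200 of 14906 genes, and the 9 at 1.5-fold beside 727. At 3-fold Col16a1 and Itga5 were not counted, and at a mean of at least 50 Col5a3 was not. The count lower than both stayed at 0 in all of these settings, beside 11 of 14906 genes at 3-fold and 331 at 1.5-fold. Against the control, 1.5-fold gave 13 of 68 higher, beside 1365 of 14906 genes, and 3 lower, beside 772. For the contralateral library against the control, the 2 higher members became 6 of 77 with no filter, where all genes had 1415 of 16610. At a mean of at least 50 they became 1 of 56, beside 393 of 13547 genes. At 1.5-fold they became 8 of 68, beside 1256 of 14906, and at 3-fold 0, beside 574. For that comparison 1.5-fold gave 2 lower, beside 336 of 14906 genes. The median of that comparison, -0.03, changed sign to 0.0307 with no filter, to 0.0082 with scaling to the total and to 0.0082 with scaling to the upper quartile. The other 58 of 68 recomputed counts and medians stayed within 1.5 times or 0.1 (log2). All 54 folds recomputed under the scalings stayed within their counting intervals. A scaling moves the ratios of a library pair by 1 common factor, between 0.986 and 1.025. That outcome therefore followed from the small factors and is no separate check of each fold. No paired analysis was possible because each group has 1 library, and for the same reason no library could be left out within a group. Depth limits Col5a3 to 7 reads in each right hemisphere and leaves 9 members under the filter.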
